A study of Homo sapiens with 8 samples.

Results

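The interior of human chromosomes 16, 17 and 20 was examined for H3K9me3, trimethylation of histone H3 at lysine 9, in PC9 cells. PC9 is an established lung adenocarcinoma line with an activating mutation in EGFR. The interior was defined on hg19 by leaving out the outer 5 Mb at each end and the centromeric (acen) bands, and it was cut into windows of 50 kb. This gave 3862 windows, 1527 on chromosome 16, 1351 on chromosome 17 and 984 on chromosome 20, out of 55005 windows that the same rule gives on all 24 chromosomes. The windows were set by position and not by a measured value, but the members were chosen with earlier results of these data known.

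H3K9me3 ChIP-seq was available for 3 states of the same line, with 1 library each. DTP + TSA cells were persisters that had been in 1 uM erlotinib for 8 days and then received 50 nM trichostatin A (TSA), an inhibitor of histone deacetylases, for 5 hours. DTP (drug-tolerant persister) cells were those alive after the 8 days of erlotinib, an inhibitor of the EGFR kinase. Parental cells received neither agent. The other 5 of the 8 samples, 2 H3K4me3 and 3 input libraries, were not analysed here.

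Since each state has 1 library, the differences below could not be checked against replicates, and p-values are left out. The measurements are lists of enriched intervals deposited by the authors. Covered share is the percentage of bases inside any interval, and depth is unknown because the lists hold no read totals. Shares of windows or intervals and ratios of interval numbers carry exact 95% (Clopper-Pearson) intervals, which cover counting error only. Neighbouring windows can share an interval, so these intervals are a lower limit of the error. Over the other 19 autosomes the covered share of the interior was 5.09% in DTP + TSA, 5.30% in DTP and 4.21% in parental cells.

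H3K9me3 is a mark of heterochromatin. It is written by methyltransferases such as SUV39H1 and SETDB1 and is read by HP1 proteins, which help to keep chromatin compact and repeats silent. It is abundant at pericentromeric repeats, over clusters of KRAB zinc finger genes and at transposable elements. Giemsa bands give a coarse view of the chromosome arm. Light bands are rich in genes and GC and replicate early, whereas dark bands are poor in genes and replicate late. Below, light stands for gneg, intermediate for gpos25 and gpos50, dark for gpos75 and gpos100, and variable for gvar.

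The label of gene-dense chromosomes was checked against a RefSeq gene table of GRCh38. Chromosome 17 had 14.0 protein-coding genes per Mb and ranked 2 of 24 chromosomes. Chromosome 16 had 9.45 per Mb and ranked 4, and chromosome 20 had 8.33 per Mb and ranked 6. Of the 3862 windows, 1720 lay in light bands, 916 in intermediate bands, 1058 in dark bands and 168 in the single variable band, 16q11.2.

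The interior of these chromosomes was more widely covered after TSA than before it, and the added cover lay mainly in light bands. Covered share was 5.26% in DTP + TSA, 3.91% in DTP and 3.18% in parental cells. Covered length in DTP + TSA was thus 1.35 times that in DTP, and in DTP it was 1.23 times that in parental cells. In the other autosomes the ratio of DTP + TSA to DTP was 0.96, on the other side of 1, while that of DTP to parental was 1.26. The TSA ratio of the other autosomes was 0.93 when chromosomes 19 and 22 were left out. With the 23842 strongest intervals of each library, the DTP to parental ratio was 0.66 in chromosomes 16, 17 and 20 and 0.67 in the other autosomes. This number is the whole parental list, so the choice leaves that library as deposited. It removes only the weaker intervals of DTP (47866 in all) and DTP + TSA (53000 in all). In these libraries it changes both the number of intervals and their signal, and the cause of the reversal was not tested. The TSA ratio under that choice was 1.12 in chromosomes 16, 17 and 20 and 0.82 in the other autosomes.

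Light bands were 6.92% covered in DTP + TSA, 4.63% in DTP and 3.604% in parental cells. The corresponding ratios were 1.49 for DTP + TSA over DTP and 1.29 for DTP over parental. Intermediate bands were 5.37% covered in DTP + TSA, 4.06% in DTP and 3.31% in parental cells. The summed cover of dark bands differed little between states, at 3.11% in DTP + TSA, 3.00% in DTP and 2.73% in parental cells. Its place differed more, since 13.1% of their bases covered in any library were covered in all 3. They held 604 intervals in DTP + TSA, 556 in DTP and 318 in parental cells. Without the dark band 17q24.3 the shares were 3.06% in DTP + TSA, 2.95% in DTP and 2.23% in parental cells. With it, the ratio of DTP + TSA to DTP in dark bands was 1.04. This ratio was 0.89 with equal numbers of intervals, and 0.97 with intervals at or above the median mean signal of their library. Light bands held 75.1% of the net length added between DTP and DTP + TSA, and made up 44.5% of the interior.

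The contrast between light and dark bands differed between the steps. For TSA, the light band ratio was 1.44 times the dark band ratio here and 1.36 times in the other autosomes. For DTP over parental, it was 1.17 times here and 0.87 times in the other autosomes, where dark bands had the higher ratio (1.42 against 1.24 in light bands). The value of 1.17 rests on chromosome 17, at 1.68, since chromosome 16 had 0.94 and chromosome 20 had 0.86. On chromosome 17 it was 1.12 without the dark band 17q24.3, which was singled out after its values were seen. Without that band the dark bands of the 3 chromosomes had a DTP to parental ratio of 1.32 in place of 1.10. The light band ratio was then 0.97 times the dark band ratio, on the same side of 1 as in the other autosomes. For TSA it stayed at 1.44 times. In the other autosomes, dark bands were 3.63% covered in DTP + TSA, 4.68% in DTP and 3.30% in parental cells, a TSA ratio of 0.77. The light bands there were 5.99% covered in DTP + TSA, 5.69% in DTP and 4.60% in parental cells, a TSA ratio of 1.05.

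**Figure D1:**
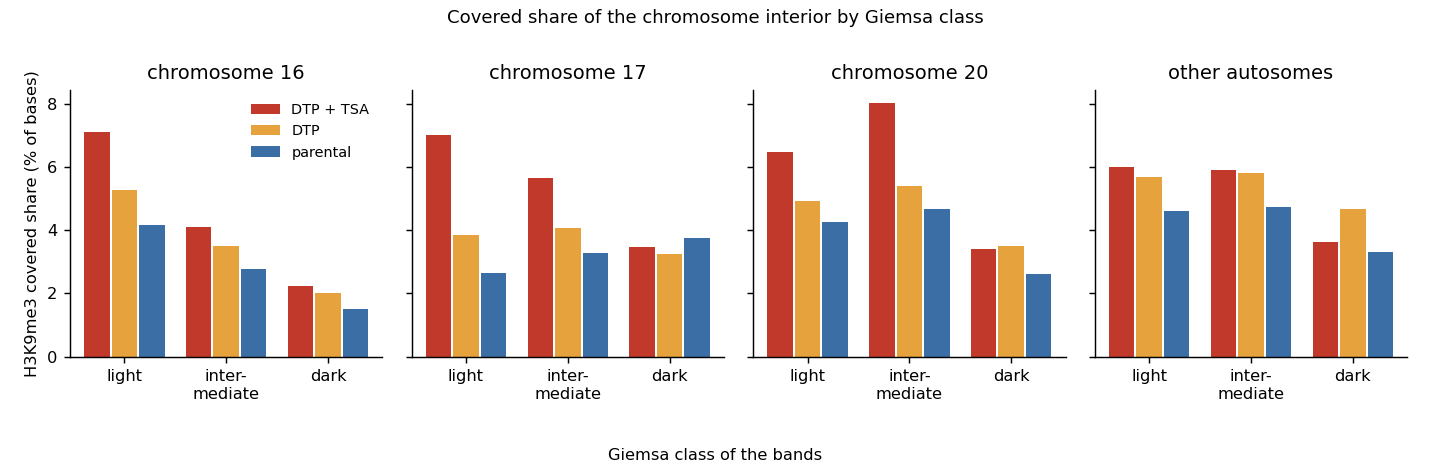
Covered share of the interior (% of bases, y axis) by Giemsa class (x axis) for chromosomes 16, 17 and 20 and for the other 19 autosomes; each bar is 1 library. Light bands of chromosome 17 reach 7.001% in DTP + TSA, against 3.84% in DTP and 2.66% in parental cells, while the dark bands of the 3 chromosomes stay between 1.503% and 3.76%.

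Chromosome 17 showed the widest TSA change of the 3 chromosomes. Its interior was 5.69% covered in DTP + TSA, 3.71% in DTP and 3.11% in parental cells. The ratio of DTP + TSA to DTP was 1.53, which ranked 2 among 24 chromosomes after chromosome 22 (1.79). In its light bands the ratio was 1.82, with 7.001% covered in DTP + TSA, 3.84% in DTP and 2.66% in parental cells. In its dark bands the ratio was 1.07, with 3.46% covered in DTP + TSA, 3.24% in DTP and 3.76% in parental cells. In parental cells the dark bands of chromosome 17 were more covered than its light bands, but not without 17q24.3, when they were 2.44% covered. The DTP to parental ratio of these dark bands was 0.86 with that band and 1.29 without it. With equal numbers of intervals the TSA ratio of chromosome 17 was 1.35, and that of its light bands 1.54.

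Chromosome 16 was 4.69% covered in DTP + TSA, 3.72% in DTP and 2.91% in parental cells, with a TSA ratio of 1.26 that ranked 3. Light bands on chromosome 16 were 7.12% covered in DTP + TSA, 5.26% in DTP and 4.16% in parental cells. Its dark bands were 2.24% covered in DTP + TSA, 2.02% in DTP and 1.503% in parental cells. The light to dark ratio of cover on chromosome 16 was thus 3.18 in DTP + TSA, 2.61 in DTP and 2.77 in parental cells. The variable band 16q11.2 was 1.26% covered in DTP + TSA, 1.395% in DTP and 0.976% in parental cells, and 157 of its 168 windows held no interval in any library.

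Chromosome 20 was 5.57% covered in DTP + TSA, 4.46% in DTP and 3.69% in parental cells, with a TSA ratio of 1.25 that ranked 4. Its intermediate bands carried the most cover, at 8.03% in DTP + TSA, 5.40% in DTP and 4.67% in parental cells. Light bands were 6.47% covered in DTP + TSA, 4.93% in DTP and 4.26% in parental cells. Dark bands on chromosome 20 were 3.42% covered in DTP + TSA, 3.50% in DTP and 2.61% in parental cells. With equal numbers of intervals the TSA ratio of chromosome 20 turned to 0.98, and to 0.94 in light bands, while that of chromosome 16 was 1.06. For DTP over parental the 3 chromosomes were close to each other, at 1.28, 1.20 and 1.21 on chromosomes 16, 17 and 20, and ranked 15, 18 and 17 of 24.

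On the 3 chromosomes the TSA ratio of light bands was highest in the zone nearest the ends. In the other autosomes, light and dark bands both had their highest ratio nearest the ends. In the 5 to 10 Mb zone, light bands of the 3 chromosomes were 8.19% covered in DTP + TSA, 3.31% in DTP and 2.33% in parental cells. The TSA ratio there was 2.47, against 1.495 in light bands of the other autosomes at the same distance. From 10 to 20 Mb the ratio was 1.28, against 1.20 in the other autosomes. Beyond 20 Mb it was 1.37, against 0.98 in the other autosomes, with 7.60% covered in DTP + TSA, 5.56% in DTP and 3.80% in parental cells. Dark bands of the 3 chromosomes had TSA ratios of 0.88, 1.06 and 1.05 in the 3 zones from the end inward, against 0.97, 0.83 and 0.76 in the other autosomes. No dark band of chromosomes 16 and 17 lay in the 5 to 10 Mb zone, so the 0.88 is from chromosome 20 alone. Over its whole interior, the dark bands of chromosome 20 had a ratio of 0.98. The 3 dark values thus come from different chromosomes and show no trend with distance. The excluded outer 5 Mb of the same chromosomes were 18.99% covered in DTP + TSA, 8.34% in DTP and 5.40% in parental cells, a TSA ratio of 2.28.

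**Figure D2:**
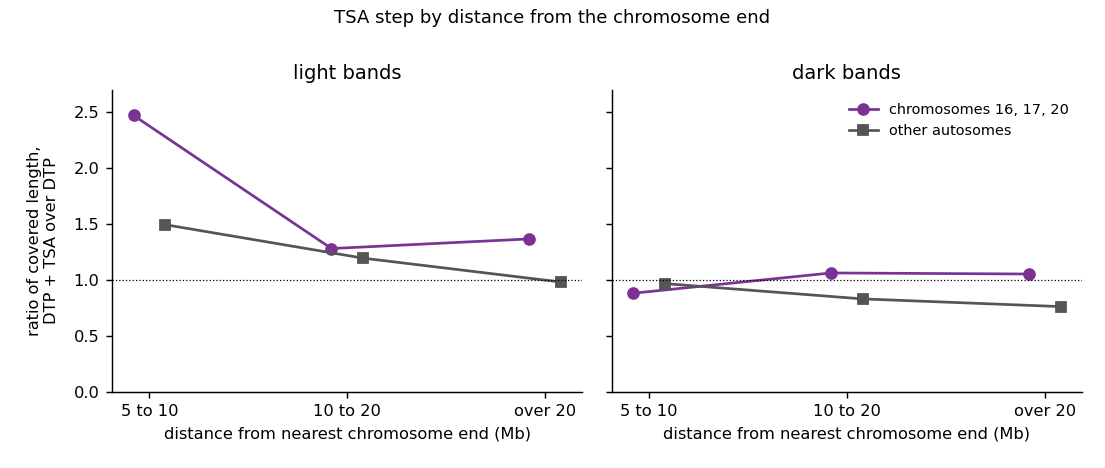
Ratio of covered length in DTP + TSA over DTP (y axis) by distance from the nearest chromosome end (x axis, Mb) in light and dark bands, for chromosomes 16, 17 and 20 and for the other autosomes; the dotted line is a ratio of 1. Beyond 20 Mb, light bands of the 3 chromosomes are at 1.37 and those of the other autosomes at 0.98. The dark band point of the 3 chromosomes at 5 to 10 Mb is from chromosome 20 alone.

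Windows were also grouped by their mean share over the 3 libraries. That mean holds both libraries of the TSA ratio, so the groups are not levels of cover before TSA. They cannot separate the light to dark contrast from the level of cover. Among windows of light bands with a mean share below 2%, between 2 and 5%, between 5 and 10%, and of 10% or more, the TSA ratios were 2.38, 2.09, 1.52 and 1.35. The same 4 groups of dark bands had ratios of 0.88, 0.99, 0.96 and 1.16. Light bands had the higher ratio in each of the 4 groups. In the other autosomes the light band ratios were 1.33, 1.11, 1.02 and 1.04, and the dark band ratios 0.63, 0.69, 0.77 and 0.83.

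Windows were called gained or lost when their covered share differed by at least 10 percentage points, which is 5 kb of the 50 kb. Between DTP + TSA and DTP, 244 of the 3862 windows were gained, or 6.32% (5.57 to 7.13), against 2.75% of all 55005 windows. Windows lost in DTP + TSA numbered 38, or 0.984% (0.697 to 1.35), against 2.67% of all windows. The other autosomes had 2.65% gained and 2.82% lost. With equal numbers of intervals the counts were 77 gained and 61 lost. Chromosomes 19 and 22, which are also gene-dense, had higher gained shares than chromosomes 16, 17 and 20 together, at 22.6% (19.9 to 25.5) and 11.1% (8.88 to 13.6), with 3.79% (2.64 to 5.25) and 0.281% (0.034 to 1.01) lost. In their light bands the gained shares were 29.9% and 15.9%. Chromosome 11, ranked 3 by gene density at 9.63 genes per Mb, had by contrast a TSA ratio of 0.98.

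Light bands held 163 of the windows gained with TSA, which was 9.48% (8.13 to 10.96) of their windows. Dark bands held 23, or 2.17% (1.38 to 3.24), and the intermediate bands 57, or 6.22% (4.75 to 7.99). In the other autosomes the gained share was 4.12% of light and 0.461% of dark windows, so both classes of chromosomes 16, 17 and 20 lay above it. On chromosome 17, 83 of 667 light windows were gained, or 12.4% (10.0 to 15.2), and 1 was lost. On chromosome 16 the gained light windows numbered 49 of 635, or 7.72%, and on chromosome 20 they numbered 31 of 418, or 7.42%. Chromosome 20 had its highest gained share in intermediate bands, with 20 of 182 windows or 10.99% (6.84 to 16.5). Chromosome 16 had 2 gained windows among 288 in dark bands.

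Counting every change of any size gave more higher than lower windows in light bands and slightly fewer in dark bands. With TSA, 1314 windows had a higher and 807 a lower covered share than in DTP, and 1516 windows held no interval in any library. In light bands 717 were higher and 340 lower, and in dark bands 245 were higher and 267 lower. Between DTP and parental cells 1200 windows were higher and 606 lower.

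Between DTP and parental cells, gained windows were less frequent than in the rest of the interior. They numbered 249, or 6.45% (5.69 to 7.27), against 9.24% of all windows. Lost windows numbered 166, or 4.30% (3.68 to 4.99), against 4.97% of all windows. With equal numbers of intervals, which left the parental list whole, the order turned round, with 82 windows gained and 263 lost. Light bands had 137 gained (7.97%) and 70 lost (4.07%), against 10.1% gained and 5.94% lost in light bands of the other autosomes. Dark bands had 54 gained (5.10%) and 51 lost (4.82%, 3.61 to 6.29). In dark bands of the other autosomes 9.49% were gained and 4.21% lost, so the lost shares of dark bands were close. On chromosome 17 the dark bands had more lost than gained windows, 26 against 19, and 14 of those 26 lay in 17q24.3. Chromosome 20 had the highest shares of the 3 in both directions, with 86 gained (8.74%) and 61 lost (6.199%).

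Set against parental cells directly, DTP + TSA had 415 gained windows, or 10.7% (9.79 to 11.8), against 8.23% of all windows. It had 153 lost windows, or 3.96% (3.37 to 4.63), against 5.22% of all windows. Light bands had 256 gained windows, or 14.9% (13.2 to 16.7), against 10.5% (10.0 to 10.9) in light bands of the other autosomes. Dark bands had 54 gained windows, or 5.10% (3.86 to 6.61), against 5.38% (5.03 to 5.74) in dark bands of the other autosomes, a difference within the counting error.

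**Figure D3:**
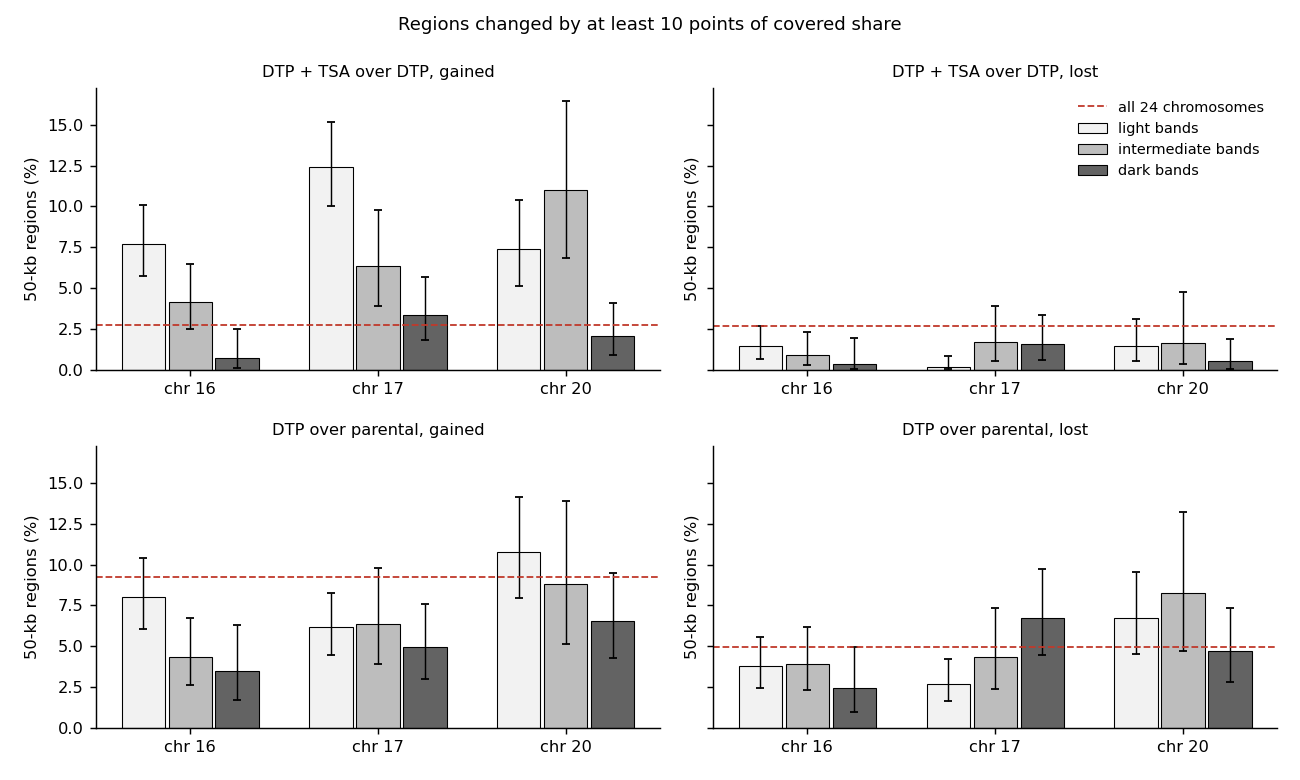
Share of 50-kb windows (%, y axis) gained or lost by at least 10 points of covered share, by chromosome (x axis) and Giemsa class, with exact 95% intervals that cover counting error only; the dashed line is the share over all 24 chromosomes. Light windows of chromosome 17 reach 12.4% gained in DTP + TSA over DTP, against 2.75% over all chromosomes, and every bar for losses in that comparison is at or below 1.68%.

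Windows gained with TSA were often neighbours. Of the 244, 119 (48.8%) touched another gained window, against 50 of the 249 windows gained in DTP over parental. The longest run was 8 windows at chr17:75550001-75950000 in the light band 17q25.3, which was 29.4% covered in DTP + TSA, 6.75% in DTP and 4.90% in parental cells. That run lies near the long-arm end of the interior. Windows lost in DTP formed runs in 54 of 166 cases. The longest of these was 6 windows at chr20:46550001-46850000 in 20q13.13, which was 10.7% covered in DTP + TSA, 15.2% in DTP and 35.5% in parental cells. The upper 5.00% of windows by change (193 windows) held 46.2% of the summed increase with TSA and 40.0% of that in DTP over parental.

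Most bands moved the same way at each step. Of 52 bands with at least 1 Mb in the interior, 43 were more covered in DTP + TSA than in DTP and 9 less. This was 23 of 25 light bands, 13 of 16 intermediate bands and 7 of 10 dark bands. The dark bands stayed within -0.53 to 0.81 points of DTP, while light bands reached 7.98 points. Between DTP and parental cells, 44 bands were higher in DTP and 8 lower, of which 21 of 25 light and 9 of 10 dark bands were higher.

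The widest TSA difference was in 17q25.1 (chr17:70900001-74800000), a light band with 93 protein-coding genes. It was 11.3% covered in DTP + TSA, 3.28% in DTP and 2.00% in parental cells. Interval numbers in the band were 106 in DTP + TSA, 41 in DTP and 21 in parental cells, and 23 of its windows were gained with TSA and 0 lost. GRB2, the adaptor that links receptor tyrosine kinases to the RAS pathway, is annotated in this band. The band 20q13.31 followed, with 11.8% covered in DTP + TSA, 4.19% in DTP and 3.75% in parental cells. Its neighbour 20q13.32 was 13.7% covered in DTP + TSA, 6.44% in DTP and 8.49% in parental cells, so it was both lower in DTP than in parental cells and higher with TSA than in either. These 3 bands lie near the long-arm end of the interior, and the TSA ratio of light bands was highest nearest the ends.

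The lowest TSA differences were small. The intermediate band 16q22.2 was 6.55% covered in DTP + TSA, 7.89% in DTP and 5.92% in parental cells. The band 20p11.22 was 5.64% covered in DTP + TSA, 6.42% in DTP and 1.48% in parental cells. The dark band 20p12.1 was 3.64% covered in DTP + TSA, 4.17% in DTP and 2.92% in parental cells. Each remained above its parental level.

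In DTP over parental, 20p11.22 had the widest gain at 4.94 points, from 19 intervals in DTP and 5 in parental cells over 1.00 Mb. The gene-rich light band 16p11.2 next to the centromere was 18.9% covered in DTP + TSA, 14.7% in DTP and 10.9% in parental cells, the most covered of the 52 bands in every library. It held 220 intervals in DTP + TSA, 153 in DTP and 70 in parental cells, and 29 windows were gained and 8 lost in DTP. The band 20p11.21, also next to a centromere, was 9.46% covered in DTP + TSA, 8.57% in DTP and 6.03% in parental cells.

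The band with the widest loss in DTP was 17q24.3 (chr17:67100001-70900000), a dark band with 8 protein-coding genes. It was 3.76% covered in DTP + TSA, 3.63% in DTP and 9.13% in parental cells. TSA did not bring the cover back to the parental level. The band held 58 intervals in DTP + TSA, 53 in DTP and 73 in parental cells, and it was the only one of the 52 bands with fewer intervals in DTP than in parental cells. The median interval was 2200 bp in DTP + TSA, 2200 bp in DTP and 4000 bp in parental cells. The light band 20q13.13 was 4.86% covered in DTP + TSA, 4.25% in DTP and 6.14% in parental cells. PTPN1, a tyrosine phosphatase that acts on receptor kinases, and ADNP, a zinc finger protein of a chromatin remodelling complex, are annotated in 20q13.13.

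**Figure D4:**
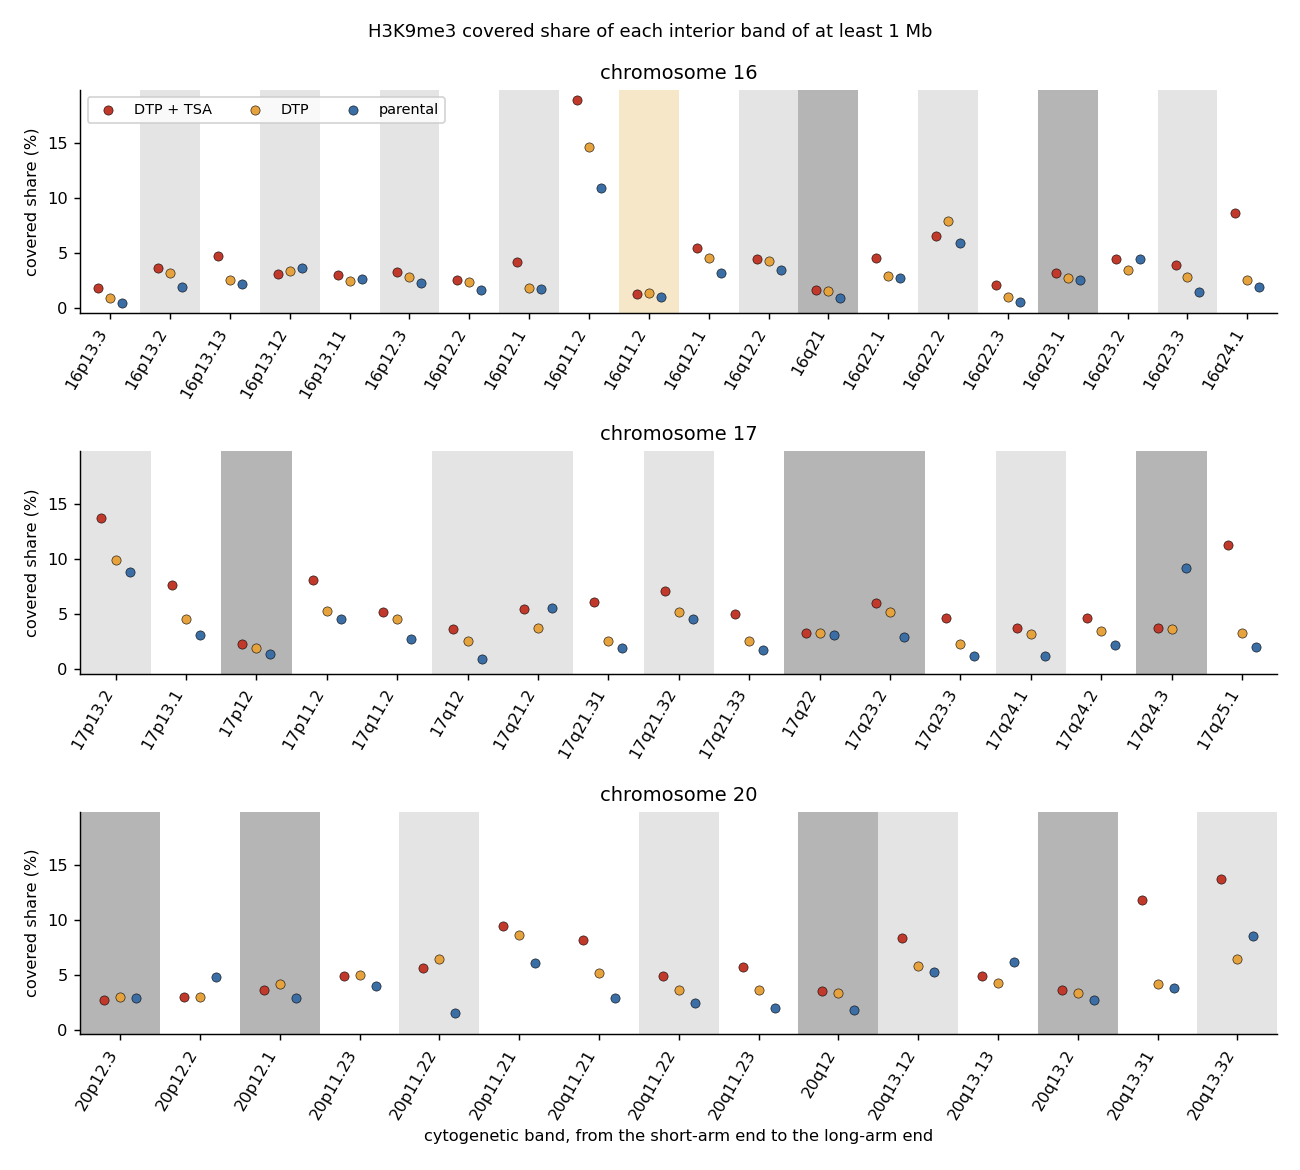
Covered share (%, y axis) of each interior band of at least 1 Mb (x axis, from the short-arm end to the long-arm end) on chromosomes 16, 17 and 20; each point is 1 library, and the background is white for light, pale grey for intermediate, dark grey for dark and yellow for variable bands. In 17q25.1 the DTP + TSA point lies at 11.3%, and in 17q24.3 the parental point lies at 9.13%, above both other libraries.

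Some single windows held intervals in 1 state only. The window with the widest TSA gain, chr17:71500001-71550000 in 17q25.1, was 63.2% covered in DTP + TSA and held no interval in DTP or parental cells. Its neighbour chr17:71550001-71600000 was 54.0% covered in DTP + TSA, 8.00% in DTP and 7.20% in parental cells. An interval of 16.4 kb, the longest in either window, spans their border in DTP + TSA. In 17q21.31, chr17:43850001-43900000 was 73.2% covered in DTP + TSA, 15.2% in DTP and 0% in parental cells. In 17p11.2, chr17:21200001-21250000 was 52.8% covered in DTP + TSA, by 2 intervals, and 0% in both DTP and parental cells. The remaining one of the 5 widest gains was chr16:29150001-29200000 in 16p11.2, at 49.2% in DTP + TSA, 0% in DTP and 8.00% in parental cells. Thus 4 of the 5 lay on chromosome 17, and all 5 lay in light bands.

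The widest TSA losses were less than the gains. In 17q21.2, chr17:39350001-39400000 was 15.2% covered in DTP + TSA, 38.4% in DTP and 22.4% in parental cells. In 20p11.23, chr20:19000001-19050000 was 6.80% covered in DTP + TSA, 28.0% in DTP and 11% in parental cells. The other 3 were 2 windows of 16p11.2 and 1 of 20q13.13, with differences between -20.8 and -19.2 points.

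At some of the widest losses in DTP no interval was listed in DTP or with TSA, which does not show that the mark was absent. In 17q24.3, chr17:69400001-69450000 was 65.6% covered in parental cells by 4 intervals and held none in DTP + TSA or DTP. Those 4 parental intervals had mean signals of 7.03 to 9.09, around the parental median of 8.37. In 17q22, chr17:54750001-54800000 was 47.2% covered in parental cells and 0% in DTP + TSA and DTP. In 20p11.21, chr20:24100001-24150000 was 13.2% covered in DTP + TSA, 8.80% in DTP and 66.8% in parental cells. In 17p11.2, chr17:16450001-16500000 was 32.8% covered in DTP + TSA, 32.4% in DTP and 87.6% in parental cells. In 16q23.2, chr16:80050001-80100000 was 4% covered in DTP + TSA, 4.40% in DTP and 54.8% in parental cells. In each of these 5 windows the DTP + TSA value lay within 5 points of the DTP value.

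The widest gains in DTP lay mostly beside centromeres. In 16p11.2, chr16:33900001-33950000 was 95.2% covered in DTP + TSA, 92.8% in DTP and 21.6% in parental cells. A pair of other windows of 16p11.2 followed. They were chr16:34000001-34050000, at 46.0% in DTP + TSA, 46.0% in DTP and 7.60% in parental cells, and chr16:31950001-32000000, at 42.0% in DTP + TSA, 36.4% in DTP and 0% in parental cells. In 20q11.21, chr20:29600001-29650000 was 40.0% covered in DTP + TSA, 38.8% in DTP and 0% in parental cells. The exception to the position was chr17:5000001-5050000 in 17p13.2, at 85.2% in DTP + TSA, 86.0% in DTP and 30.0% in parental cells.

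The longest intervals, by contrast, were shared by all 3 libraries. In 16p11.2 an interval of 93.8 kb in DTP + TSA (chr16:32479801-32573600) matched one of 82.0 kb in DTP and one of 94.4 kb in parental cells. In 16q11.2 an interval of 70.8 kb in DTP + TSA (chr16:46385801-46456600) matched one of 70.4 kb in DTP and one of 73.4 kb in parental cells. Each was covered over at least 95.3% of its length in both other libraries. The authors' mean signal of the 16q11.2 interval was far above the median interval of its own library, at 832 against 11.04 in DTP + TSA, 1046 against 10.3 in DTP and 921 against 8.37 in parental cells.

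Over the whole interior, intervals were more numerous with TSA and their median length was not greater. The interior held 3144 intervals in DTP + TSA, 2228 in DTP and 1222 in parental cells, which is 16.3 per Mb in DTP + TSA, 11.5 in DTP and 6.33 in parental cells. The number in DTP + TSA was 1.41 times (1.34 to 1.49) that in DTP, against 1.04 times (1.03 to 1.06) in the other autosomes. The ratio was 1.55 (1.44 to 1.67) in light bands and 1.09 (0.967 to 1.22) in dark bands. Median length was 2400 bp in DTP + TSA, 2600 bp in DTP and 3800 bp in parental cells. In the other autosomes it was 2200 bp in DTP + TSA, 2400 bp in DTP and 3800 bp in parental cells. The medians of single bands went either way. In 17q25.1 the median was 3800 bp in DTP + TSA and 2800 bp in DTP, and in 17q12 it was 1800 bp and 2500 bp. Chromosome 17 had the highest ratio of the 3, at 1.56 (1.43 to 1.71), chromosome 16 had 1.36 (1.24 to 1.499) and chromosome 20 had 1.29 (1.17 to 1.43).

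DTP had 1.82 times (1.70 to 1.96) the intervals of parental cells, against 1.99 times (1.96 to 2.03) in the other autosomes. This ratio differed little between light bands, at 1.89 (1.71 to 2.10), and dark bands, at 1.75 (1.52 to 2.01). Intervals of up to 2 kb made up 40.9% (39.2 to 42.7) of the list in DTP + TSA, 36.5% (34.5 to 38.5) in DTP and 15.8% (13.8 to 18.0) in parental cells. The other autosomes had the same order, at 44.6% in DTP + TSA, 39.5% in DTP and 16.4% in parental cells. Intervals above 16 kb numbered 16 (0.509%) in DTP + TSA, 17 (0.763%) in DTP and 27 (2.21%) in parental cells. In the other autosomes they made up 0.536% in DTP + TSA, 0.573% in DTP and 2.76% in parental cells. Within each library, light bands had a higher median of the authors' mean signal than dark bands. The medians of light and dark bands were 11.21 and 10.3 in DTP + TSA, 10.6 and 9.75 in DTP, and 8.76 and 7.75 in parental cells. These signals are the authors' own and are compared within a library only.

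Many of the intervals found with TSA lay where DTP had none. Of the DTP + TSA intervals, 54.3% (52.5 to 56.1) shared at least 1 bp with a DTP interval, against 69.2% (68.8 to 69.7) in the other autosomes. Here the share was 52.5% (50.1 to 54.9) in light and 63.6% (59.6 to 67.4) in dark bands. The order was the same in the other autosomes, with 65.8% in light and 75.95% in dark bands. Among the chromosomes examined here, chromosome 17 had the lowest share, 49.2% (46.4 to 52.1). In its light bands it was 46.7% (43.0 to 50.4). The DTP + TSA intervals without a DTP partner were shorter than those with one, with a median of 2000 bp against 2800 bp, and had a lower median mean signal, 9.90 against 12.4.

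Seen from DTP, 74.8% (72.9 to 76.6) of its intervals overlapped one of DTP + TSA, against 70.3% (69.8 to 70.7) in the other autosomes. The share was 79.8% (77.3 to 82.1) in light bands and 67.1% (63.0 to 71.0) in dark bands. The other autosomes had the same order, with 73.0% in light and 64.5% in dark bands. DTP + TSA covered 6.92% of light and 3.11% of dark bands of the 3 chromosomes. A more widely covered list can overlap more intervals, and its part in these shares was not tested. Between DTP and parental cells, 33.3% (31.4 to 35.4) of DTP intervals overlapped a parental one, and 57.9% (55.0 to 60.6) of parental intervals overlapped a DTP one. In the other autosomes 34.3% (33.8 to 34.8) of DTP intervals overlapped a parental one, close to the share here. There 63.3% (62.6 to 64.0) of parental intervals overlapped a DTP one. Of the parental intervals, 60.9% (56.8 to 64.9) were shared with DTP in light bands and 51.6% (45.9 to 57.2) in dark bands. In the other autosomes the light and dark shares were 64.1% (63.0 to 65.1) and 62.3% (61.0 to 63.5).

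Counted by bases, sequence covered in DTP + TSA alone made up 27.9% of all bases covered in any library. In the other autosomes it made up 14.8%. Here it was 32.5% in light and 17.3% in dark bands, and 42.6% in the light bands of chromosome 17. The order was the same in the other autosomes, with 17.88% in light and 9.479% in dark bands. Bases covered in parental cells alone made up 18.3%, with 14.8% in light and 27.9% in dark bands. The share was 33.7% in the dark bands of chromosome 17, where the part of 17q24.3 was not tested. For parental cells alone, the other autosomes had 21.99%, with 21.03% in light and 23.79% in dark bands. Bases covered in all 3 libraries made up 16.2% here, against 18.55% in the other autosomes.

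Bands with more genes tended to have the wider TSA difference, and no such trend was seen for DTP over parental cells. Genes were counted in GRCh38 bands and matched by band name. Median density was 11.4 protein-coding genes per Mb in light, 5.58 in intermediate and 3.93 in dark bands. Across 52 whole bands, Spearman's rho between gene density and the difference of DTP + TSA minus DTP was 0.58, and within light bands (27) it was 0.44. For DTP minus parental it was 0.04. Across the 22 autosomes, rho between gene density and the TSA ratio of the interior was 0.69, and for the ratio of DTP to parental it was 0.02. Not every gene-dense chromosome had a TSA ratio above 1. It was 0.983 on chromosome 11, ranked 3 by density, and 0.980 on chromosome 1, ranked 7. The rho values are descriptions across bands and chromosomes, which share their libraries and base composition and are not independent. GC content moves with gene density and was not measured here, and its part in the result was not tested.

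**Figure D5:**
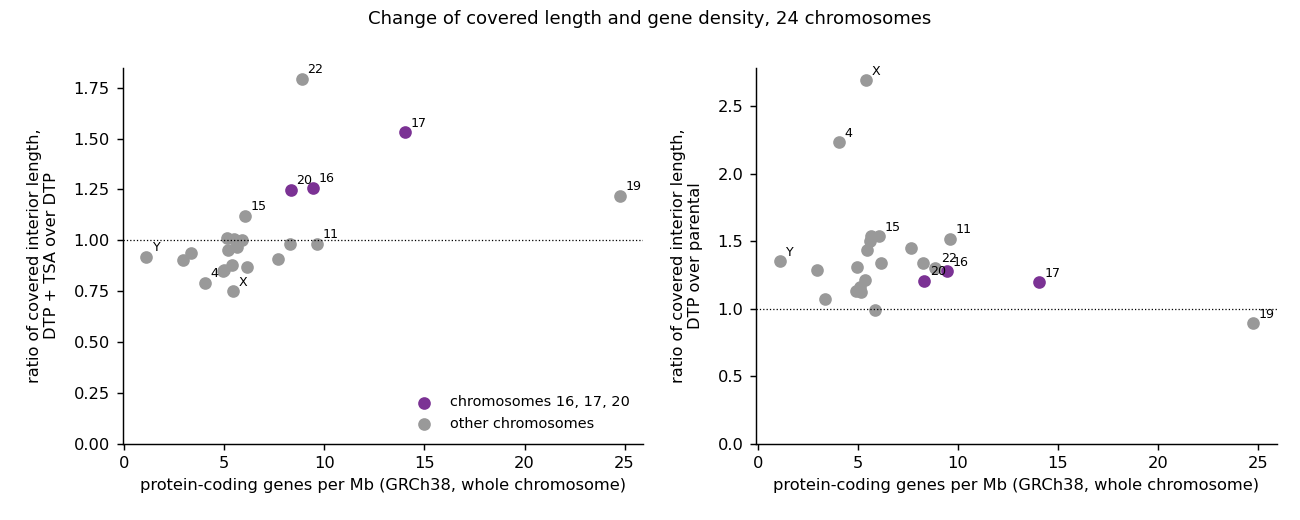
Ratio of covered interior length (y axes) in DTP + TSA over DTP and in DTP over parental, against protein-coding genes per Mb of the whole chromosome in GRCh38 (x axes); each point is 1 of 24 chromosomes, chromosomes 16, 17 and 20 are purple, and the dotted line is a ratio of 1. Chromosome 17, with 14.0 genes per Mb, lies at 1.53 for TSA and 1.20 for DTP, and chromosome 19, the densest, at 1.22 and 0.89. Chromosome 11, with 9.63 genes per Mb, lies at 0.98 for TSA and 1.52 for DTP.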

How the data were processed

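H3K9me3 ChIP-seq of PC9 cells was read from 1 interval list per state. Per the file headers, each deposited list gives an interval's position, its summit, a summit value, a mean value and a bin count. Of these, the mean value, the authors' signal per interval, served to rank or filter intervals and to describe them inside each library. Per the submitters' processing notes, the tools were BWA and SICER and the builds hg19 and dm3, with no version or role stated. The sources used here do not give the input, threshold or scaling, and a deeper library can hold more intervals. Interval borders lie on a grid of 200 bp, and no gap between intervals was below 800 bp. Coordinates are 1-based on hg19.

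Covered bases were summed per 50-kb window. An interval was placed by its midpoint. R 4.3.3 supplied bands (circlize 0.4.16) and lengths of chromosomes (GenomeInfoDb 1.38.1). Python 3.11.15 did the rest, with matplotlib 3.10.9, scipy 1.17.1, numpy 2.4.6 and pandas 2.3.3. The code was tested on random draws of 600 deposited DTP intervals of chromosome 20, and 6 of 6 checks returned the known answer. Genes of a RefSeq table of GRCh38 were placed in bands and matched to hg19 by band name, so no gene is placed within a band. No hg19 genome was used here, and no sequence or GC content is given.

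Named are the 3 bands of at least 1 Mb at each end of each comparison, the 5 windows at each end, and the 2 longest intervals of each library. The members and lists were chosen with earlier results of these data known. The 2 comparisons share the DTP library. Alternatives were joining within 5 kb, equal numbers of the strongest intervals, intervals at or above the median mean signal, removal below the pooled median length of 2600 bp, the outer 10 Mb left out, dark bands with gpos50, other call limits, windows of 100 kb, overlap of at least 50%, a length-weighted mean, and 16q11.2 left out. Leaving out 16p11.2 or 17q24.3 was chosen after seeing the data.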

Additional observations from a re-analysis of the deposited data

How the results depend on the processing

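Of 73 alternatives, 31 stayed within set limits of the value reported, 36 moved and 6 changed direction. For covered length the limits were the counting interval of the ratio of interval numbers, rescaled to the ratio reported. Window counts were held to within 1.5 times, overlap shares to their counting interval and mean signals to the quartiles. A change of direction was labelled for ratios of covered length only, so the turn in windows gained and lost counts as moved. DTP + TSA over DTP stayed above 1 in the whole interior and in light bands under every alternative run. In the whole interior it was 1.12 with equal numbers of the strongest intervals, 1.22 with the upper part by mean signal and 1.26 without the outer 10 Mb, and in light bands 1.15, 1.26 and 1.35. In dark bands it was 0.89 with equal numbers and 0.97 with the upper part. Equal numbers left the parental list whole. DTP over parental was then 0.66 in the whole interior, 0.76 in light and 0.49 in dark bands. It was 1.02, 1.10 and 0.81 without the shorter intervals, and 1.32 in dark bands without 17q24.3, where the light band ratio was 0.97 times the dark band ratio in place of 1.17. The cause of these changes was not tested.

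Windows gained with TSA numbered 513 at 5 points, 62 at 20 points, 94 at 100 kb and 77 with equal numbers, and windows lost 165, 4, 9 and 61, with 64 after joining. For DTP over parental, windows gained numbered 590, 31, 65 and 82, and lost 337, 57, 59 and 263. At 50% overlap, 29.4% of DTP intervals overlapped a parental one, 47.1% of parental a DTP one, 51.1% of DTP + TSA a DTP one and 70.8% of DTP a DTP + TSA one. With equal numbers, 38.5% of DTP, 34.5% of parental and, against DTP + TSA, 67.1% of DTP intervals were shared. The length-weighted mean signal was 23.8 in DTP + TSA, 26.5 in DTP and 24.8 in parental cells. Unknown depth and 1 library per state limit every value. No paired analysis was possible because each state has 1 library.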

Other observations

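Gene groups were read through the bands that hold them, so a value is the covered share of the band and not of the gene. Over the 1867 protein-coding genes of 53 whole interior bands, the mean band share was 6.45% in DTP + TSA, 4.41% in DTP and 3.50% in parental cells. The 35 C2H2 zinc finger genes, a family with many KRAB repressors, lay in bands with 10.4% covered in DTP + TSA, 8.26% in DTP and 6.29% in parental cells, and 13 of them were in 16p11.2. The 11 receptor signalling and survival genes, such as ERBB2, STAT3 and SRC, lay in bands with 7.42% in DTP + TSA, 4.88% in DTP and 4.30% in parental cells. The 12 chromatin genes, among them CTCF, DNMT3B and CBX1, which encodes an HP1 protein, lay in bands with 6.11% in DTP + TSA, 3.95% in DTP and 3.41% in parental cells. The 7 beta-defensin genes of 20q11.21, which encode antimicrobial peptides, had 8.12% in DTP + TSA, 5.12% in DTP and 2.92% in parental cells.

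The 10 HOXB genes of 17q21.32, developmental transcription factors, had 7.04% in DTP + TSA, 5.14% in DTP and 4.50% in parental cells. The 60 type I keratin and keratin-associated genes of 17q21.2 were the group with a lower value in DTP than in parental cells, at 5.46% in DTP + TSA, 3.69% in DTP and 5.52% in parental cells. The 18 CCL chemokine genes, 16 of them in 17q12, lay in bands with 3.44% in DTP + TSA, 2.47% in DTP and 0.913% in parental cells. The 8 cadherin genes of cell adhesion lay in bands with 3.88% in DTP + TSA, 2.78% in DTP and 2.23% in parental cells. The 11 metallothionein genes of 16q13 had the lowest cover with TSA of these 9 groups, at 2.17% in DTP + TSA, 1.97% in DTP and 1.63% in parental cells. Every one of the 9 groups had a higher band share in DTP + TSA than in DTP, as did all protein-coding genes together, so nothing here is particular to a group.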
